A study of Mus musculus with 6 samples.

Results

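The genes described here are the DNA replication machinery of mouse erythroleukemia (MEL) cells, 45 genes chosen by their function, from the origin recognition complex to the enzymes that join the lagging strand. All 45 were found in the deposited counts and all 45 passed the filter on low counts, among 12381 genes tested. MEL cells are a leukemic mouse line halted at an early red cell stage, and dimethyl sulfoxide (DMSO) sets them on the way to hemoglobin-making cells. The samples were 2 cultures before treatment (day 0), 2 after 2 days in 2% DMSO (day 2) and 2 after 4 days (day 4), 6 libraries in all. The line carries no engineered allele in the labels, every culture grew in the same medium with 10% serum, and no vehicle or untreated culture of a later day was analysed here, so DMSO and time in culture cannot be told apart. Each library was a stranded, poly(A)-selected mRNA library, with 35294930 to 53899476 counts summed over transcripts. Transcripts of the same gene can hold the same counts, as for Orc3, so these sums are not numbers of reads. Counts of single genes were high enough for sampling error to be small, from 170 for Gins1 in its lowest library to 30968 for Mcm5 in its highest.

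Replication starts in G1, when the origin recognition complex (ORC), CDC6 and CDT1 load rings of MCM2 to MCM7 onto DNA, a step that geminin blocks outside G1 by holding CDT1. In S phase CDC45 and the GINS complex join the ring to make the active helicase. Polymerase alpha with its primase then lays primers, replication factor C (RFC) loads the PCNA clamp, polymerases epsilon and delta copy the leading and the lagging strand, and FEN1, DNA2, ribonuclease H2 and DNA ligase I remove primers and seal nicks. Many of these genes are known targets of E2F transcription factors, which rise and fall with cell proliferation, and terminal erythroid cells are known to leave the cell cycle after a last few divisions.

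Letters of the kind that E2F factors are known to bind stood near the RefSeq start of several of these genes. RefSeq windows from 250 bases before to 50 bases after the start (GRCm38.p6) were found for 36 of the 45 genes, and 15 of the 36 (41.7%) held TTTCCCGC, TTTCGCGC, TTTGCCGC or TTTGGCGC on either strand, against 2.6% of 27025 genes with such windows. A match is a description of letters and not a bound site. Only these exact letters were searched, so a window without a match is not shown to lack a site. The genes with a match were Orc1, Orc3, Cdc6, Cdt1, Mcm3, Mcm5, Mcm6, Mcm7, Gins3, Rfc3, Pola1, Pold1, Pold3, Pole2 and Lig1. CCAAT was present for 22 of the 36 genes (61.1%, against 41.1% of all genes), and the GC box GGGCGG for 26 (72.2%, against 38.2%). The cell-cycle element TTTGAA was found for 5 (13.9%, against 20.2%), the E-box CACGTG for 6 (16.7%, against 8.09%) and the CCACACCC of erythroid KLF1 for 0 of 36 (4.09% of all genes). All letters were searched on both strands, and E2F letters read on opposite strands can overlap. No window was found for Gmnn, Mcm4, Gins1, Gins2, Gins4, Rfc2, Prim2, Pole and Tipin.

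Windows of 4 genes are printed 5′ to 3′ on the strand of the gene, with E2F letters in capitals. Mcm5 had the most negative change of the 45 genes by day 4, Mcm6 held the most matches, Pola1 had the most negative change from day 2 to day 4, and Rnaseh2a was the gene that ended higher. The windows lie at chr8:75109259-75109558 (plus strand) for Mcm5, chr1:128359656-128359955 (minus strand) for Mcm6, chrX:93632106-93632405 (minus strand) for Pola1 and chr8:84966027-84966326 (minus strand) for Rnaseh2a. The listed starts of Mcm5, Pola1 and Rnaseh2a lie inside the span of the gene, so bases printed before the start can belong to the gene.
Mcm5: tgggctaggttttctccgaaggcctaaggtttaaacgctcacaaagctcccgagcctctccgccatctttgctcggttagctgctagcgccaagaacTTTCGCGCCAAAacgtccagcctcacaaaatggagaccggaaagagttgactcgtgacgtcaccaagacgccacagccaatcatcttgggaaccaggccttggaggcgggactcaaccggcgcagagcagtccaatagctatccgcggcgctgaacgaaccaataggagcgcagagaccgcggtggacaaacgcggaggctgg
Mcm6: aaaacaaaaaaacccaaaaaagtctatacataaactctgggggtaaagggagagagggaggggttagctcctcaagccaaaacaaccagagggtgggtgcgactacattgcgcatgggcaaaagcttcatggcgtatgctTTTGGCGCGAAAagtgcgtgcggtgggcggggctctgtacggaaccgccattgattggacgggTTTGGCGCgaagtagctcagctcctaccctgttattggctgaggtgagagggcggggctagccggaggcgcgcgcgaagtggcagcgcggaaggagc
Pola1: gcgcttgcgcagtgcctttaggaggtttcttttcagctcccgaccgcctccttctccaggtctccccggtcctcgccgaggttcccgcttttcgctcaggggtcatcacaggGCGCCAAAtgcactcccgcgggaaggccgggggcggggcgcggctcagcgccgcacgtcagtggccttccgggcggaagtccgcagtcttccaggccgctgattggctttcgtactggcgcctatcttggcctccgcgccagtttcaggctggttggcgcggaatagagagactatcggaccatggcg
Rnaseh2a: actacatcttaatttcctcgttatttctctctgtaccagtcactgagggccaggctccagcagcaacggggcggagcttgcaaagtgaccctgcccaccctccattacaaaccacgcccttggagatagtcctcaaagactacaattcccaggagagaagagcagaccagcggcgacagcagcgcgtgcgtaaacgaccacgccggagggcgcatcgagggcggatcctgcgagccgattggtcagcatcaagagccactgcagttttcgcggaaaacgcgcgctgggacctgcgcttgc
In Mcm5 a pair of matches on opposite strands overlap, and the first of them begins at position -153 relative to the start. Mcm6 holds 3 matches, at positions -110, -106 and -47, and the first pair overlap. Pola1 holds 1 match, at position -138, and the window of Rnaseh2a holds 0.

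Across the course these genes fell together, and Rnaseh2a, which encodes the catalytic subunit of ribonuclease H2, was the 1 exception among those that changed. Changes are given as log2 fold changes from 1 edgeR quasi-likelihood fit of all 6 libraries. Their standard error (SE) was back-calculated from the test, as the absolute log2 fold change over the square root of its F statistic. A gene was called lower or higher at a Benjamini-Hochberg adjusted p below 0.05 over all 18351 transcripts tested. From day 0 to day 4, 42 of the 45 genes were lower, 1 was higher and 2 (Orc3 and Orc4) were not called. Among all genes tested, 36.4% were called lower and 35.5% higher in that comparison. Over the 45 genes the log2 fold change had a median of -1.29 and ranged from -2.20 for Mcm5 to 0.54 for Rnaseh2a. The median over all genes tested was -0.02. Of the 45, 33 were called lower by at least 1 on the log2 scale, and the share of all genes at that limit was not computed. The 45 transcripts together took 0.566% and 0.539% of the counts in the day 0 libraries, 0.411% and 0.405% at day 2, and 0.232% and 0.242% at day 4. These are shares of a library, so fewer cycling cells and less RNA of each gene per cell cannot be told apart.

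**Figure D1:**
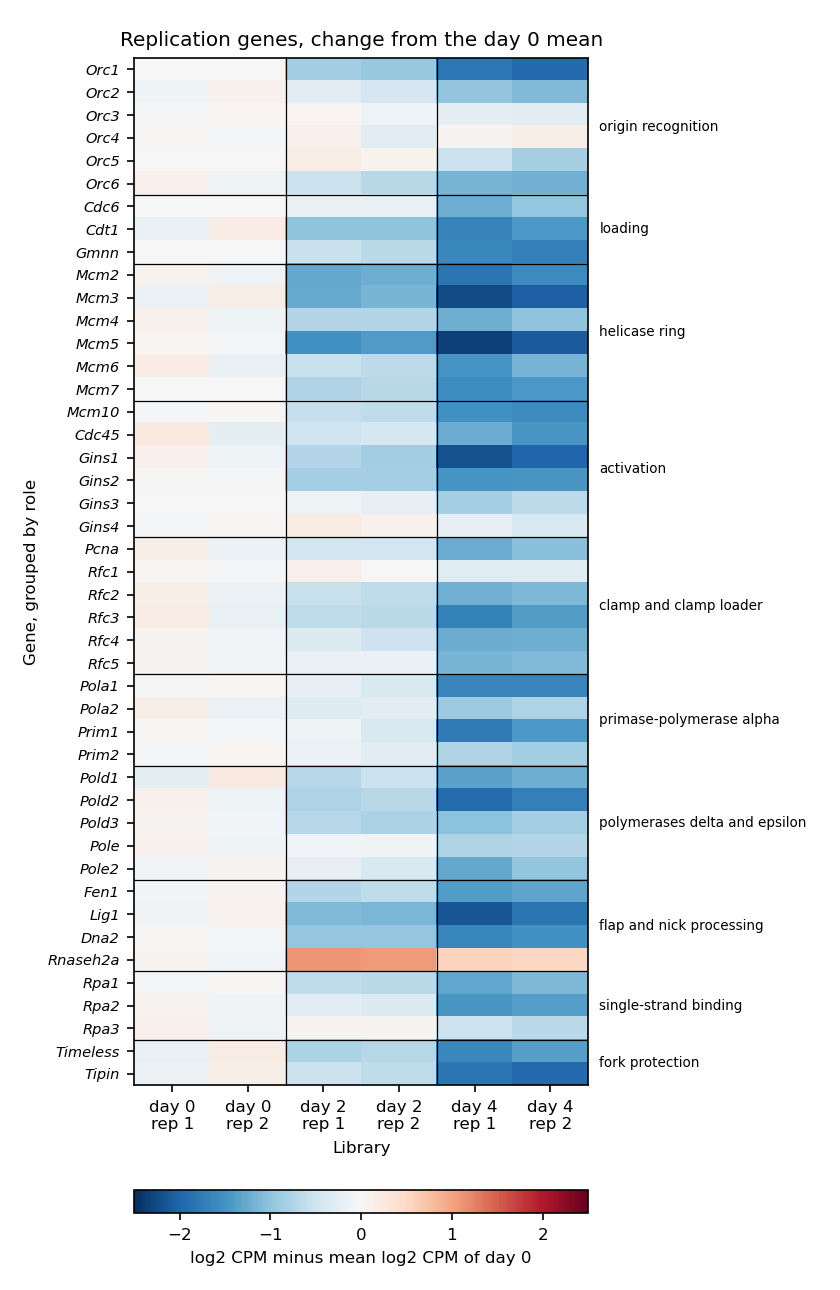
Log2 of counts scaled to library size (CPM) of each of the 45 replication genes in each of the 6 libraries, minus the mean log2 CPM of that gene at day 0, with genes grouped by role in rows and libraries in columns (blue lower, red higher). Most rows deepen in blue from day 2 to day 4, Orc3 and Orc4 stay near the day 0 color, and Rnaseh2a is red in all 4 treated libraries.

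Each interval was also taken alone. From day 0 to day 2, 31 of the 45 genes were lower and 1 was higher, against 31.5% and 31.0% of all genes, and the median was -0.61. The 13 genes not called at this step were Orc3, Orc4, Orc5, Cdc6, Gins3, Gins4, Rfc1, Rfc5, Prim1, Prim2, Pole, Pole2 and Rpa3. From day 2 to day 4, 42 of the 45 genes were lower and 0 were higher, against 16.2% and 14.0% of all genes, and the median was -0.69. The count of higher genes was also 0 at an unadjusted p below 0.05 and with DESeq2. Orc3, Orc4 and Pold3 were not called at this second step. By rank of their log2 fold change among all genes, 24 of the 45 lay in the lowest 25% from day 0 to day 2, 42 from day 2 to day 4 and 36 over the whole course. In the lowest 10% lay 4, 22 and 15 of the 45 in the same order. The 3 comparisons share libraries, so their counts are not independent of each other.

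Of the 6 origin recognition genes 4 were lower by day 4, with a median log2 fold change of -0.86. Orc1, the ATP-hydrolysing subunit whose level is known to follow the cell cycle, was at 41.6 and 42.5 CPM at day 0, 23.0 and 21.8 at day 2, and 12.0 and 10.9 at day 4. No library of one day reached the level of another day, and the log2 fold change by day 4 was -1.88 (SE 0.12, edgeR adjusted p = 2.13e-07). Orc4, another core subunit, was at 32.4 and 31.3 CPM at day 0, 34.9 and 26.1 at day 2, and 33.3 and 35.3 at day 4. Its day 2 libraries lay on both sides of those of day 0 and overlapped those of day 4, and its log2 fold change by day 4 was 0.11 (SE 0.14, edgeR adjusted p = 0.507). Orc3 had a log2 fold change of -0.24 (SE 0.10, edgeR adjusted p = 0.0558), just outside the threshold. Of the other subunits, Orc2 and Orc6 were lower at both steps, with log2 fold changes of -1.05 and -1.19 by day 4. Orc5 had 61.0 and 59.5 CPM at day 0 and 67.9 and 63.7 at day 2 without being called, and was lower from day 2 to day 4 (-0.81, SE 0.12, edgeR adjusted p = 0.000938). Per kilobase of transcript, Orc1 had the lowest level of the 6 subunits in both day 4 libraries (3.98 and 3.61 CPM per kb) whether exon length or coding length was used. Orc1, Orc2 and Orc4 have more than 10% of their exon bases opposite exons of a gene on the other strand, and the strand setting of the counting was not given in the sources used here.

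All 3 licensing genes were lower by day 4. Gmnn, which encodes geminin, was at 103 and 102 CPM at day 0, 69.4 and 64.4 at day 2, and 33.5 and 31.3 at day 4, with a log2 fold change of -1.66 (SE 0.10, edgeR adjusted p = 1.94e-07). Cdc6, the loader that acts with ORC, was at 119 and 116 CPM at day 0, 104 and 104 at day 2, and 50.2 and 60.0 at day 4. Its first step was not called (log2 fold change -0.18, SE 0.11, edgeR adjusted p = 0.17), whereas the second was -0.91 (SE 0.11, edgeR adjusted p = 0.000383). Cdt1, which brings the MCM ring to the origin, was at 60.9 and 78.8 CPM at day 0, 34.6 and 34.5 at day 2, and 21.7 and 25.5 at day 4, with steps of -1.01 (SE 0.14, edgeR adjusted p = 9.78e-05) and -0.55 (SE 0.14, edgeR adjusted p = 0.014). The ratio of Cdt1 to Gmnn per kilobase of transcript was 0.259 and 0.341 at day 0, 0.220 and 0.236 at day 2, and 0.285 and 0.359 at day 4, and the libraries of days 0 and 4 overlapped.

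The 6 genes of the MCM ring all fell at both steps, and they had the lowest median of the groups with more than 2 genes, -1.60 by day 4. Mcm5 (chromosome 8, 75109468 to 75128439) was at 664 and 624 CPM at day 0, 225 and 240 at day 2, and 128 and 153 at day 4. Its level at day 4 was 21.8% of that at day 0 (log2 fold change -2.20, SE 0.13, edgeR adjusted p = 1.37e-07). Mcm4 had the least negative change of the ring, with 217 and 188 CPM at day 0, 122 and 121 at day 2, and 86.1 and 101 at day 4 (log2 fold change -1.11, SE 0.12, edgeR adjusted p = 9.53e-06). Mcm3, Mcm2, Mcm7 and Mcm6 lay between them, at -2.14, -1.71, -1.49 and -1.32. In every gene of the ring both day 4 libraries lay below both day 2 libraries, and these below both day 0 libraries. How many of all genes tested had their libraries in such an order was not counted.

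The ring holds its subunits in equal number, and the mRNA of Mcm5 drew closer in level to that of Mcm4. Per kilobase of transcript, Mcm5 was at 196 and 185 CPM per kb at day 0 and Mcm4 at 60.4 and 52.3. The ratio of Mcm5 to Mcm4 was 3.25 and 3.53 at day 0, 1.96 and 2.1 at day 2, and 1.57 and 1.61 at day 4, without overlap between days. These genes had the most and the least negative change of the ring, so the fall of their ratio follows from the choice of the pair. The highest subunit exceeded the lowest by 3.25 and 3.53 times at day 0, 2.94 and 2.74 times at day 2 and 2.19 and 2.47 times at day 4. Mcm5 was the highest at day 0 and Mcm6 in all 4 treated libraries. Mcm6 was at 166 and 128 CPM per kb at day 0, 99.7 and 92.6 at day 2, and 52.6 and 65.3 at day 4. Whether the ring genes other than Mcm5 drew closer to each other was not tested. With coding length in place of exon length the ratio of Mcm5 to Mcm4 was higher, with means of 3.75, 2.25 and 1.76 on the 3 days, in the same order. For Mcm7, 37.6% of its stretches of 31 bases also occur in other genes, most of all Gm5487, and 13.0% of its exon bases lie opposite other genes, so its level is less certain than those of the other subunits.

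**Figure D2:**
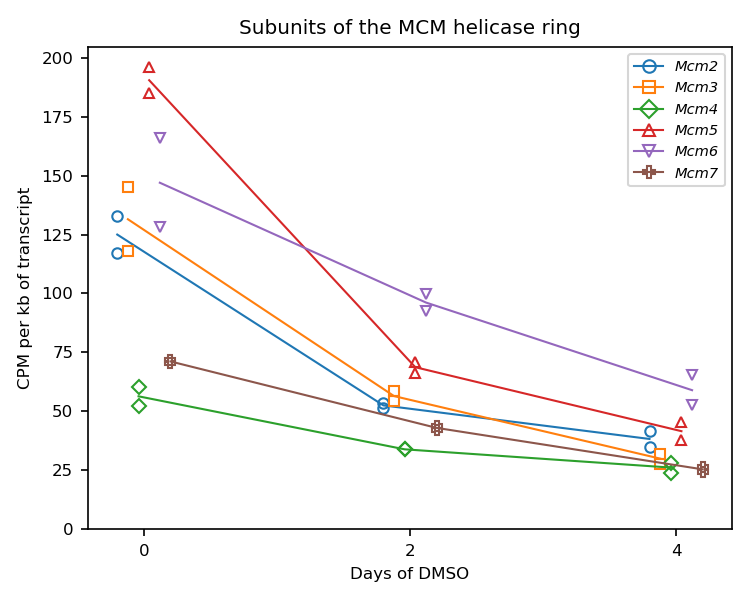
Level of the 6 MCM ring genes in CPM per kilobase of transcript against days of DMSO, with a marker for each library and lines through the means of the 2 libraries (markers are offset sideways by gene). Mcm5 is the highest gene at day 0 and Mcm6 at days 2 and 4, and the distance between the highest and the lowest gene narrows.

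Genes that turn the loaded ring into a working helicase were lower in 6 of 6 cases by day 4, with a median of -1.41. Gins1 was at 23.2 and 19.4 CPM at day 0, 12.8 and 11.6 at day 2, and 4.71 and 5.35 at day 4, a log2 fold change of -2.08 (SE 0.15, edgeR adjusted p = 5.29e-07). Gins4 took another course, with 77.6 and 81.8 CPM at day 0, 91.1 and 86.3 at day 2, and 69.5 and 61.0 at day 4. Its first step was not called (0.15, SE 0.11, edgeR adjusted p = 0.225), and its log2 fold change by day 4 was -0.29 (SE 0.11, edgeR adjusted p = 0.0299). GINS is a complex of equal parts, yet Gins4 exceeded the lowest of the 4 genes per kilobase by 5.43 and 5.79 times at day 0, 8.85 and 8.31 times at day 2 and 11.9 and 9.19 times at day 4, where the lowest was Gins3, Gins2 and Gins1 in turn. With coding length Gins1 was the lowest in all 6 libraries, and the ratios were 2.94 and 3.71 at day 0, 6.25 and 6.54 at day 2, and 13 and 10 at day 4. Gins3 and Gins2 had log2 fold changes of -0.73 and -1.46. Gins2 has 70.7% of its exon bases opposite Gse1, which had 76.8 and 111 CPM at day 0 and 232 and 265 at day 4 while Gins2 fell, and the part of Gse1 reads in its counts was not tested. Mcm10, which steadies the starting helicase, and Cdc45 had log2 fold changes of -1.54 (SE 0.10) and -1.36 (SE 0.15). Cdc45 was at 101 and 72.8 CPM in the day 0 libraries and at 36.2 and 31.2 at day 4.

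Every gene of the clamp and the clamp loader was lower by day 4, with a median of -1.16. Pcna, the sliding clamp that holds the polymerases on DNA, was at 147 and 121 CPM at day 0 and 56.2 and 64.7 at day 4 (-1.15, SE 0.12, edgeR adjusted p = 8.41e-06). For Pcna, 38.0% of the stretches of 31 bases also occur in other genes, most of all the pseudogene Pcna-ps2, and reads of the copies may have been split. Rfc3 was at 41.1 and 31.5 CPM at day 0, 23.1 and 22.7 at day 2, and 11.2 and 13.7 at day 4 (-1.54, SE 0.15, edgeR adjusted p = 5.2e-06). Rfc1, the large subunit, was at 133 and 123 CPM at day 0, 139 and 128 at day 2, and 103 and 104 at day 4. Its day 0 and day 2 libraries overlapped and its fall by day 4 was -0.31 (SE 0.10, edgeR adjusted p = 0.0192), against -1.14 to -1.54 for the small subunits Rfc2, Rfc3, Rfc4 and Rfc5. Rfc2, Rfc4 and Rfc5 each have more than 10% of exon bases opposite another gene.

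All 4 genes of primase and polymerase alpha were lower by day 4, with a median of -1.22. Pola1 (chromosome X, 93304766 to 93632387), the catalytic subunit, was at 223 and 241 CPM at day 0, 202 and 177 at day 2, and 74.1 and 74.1 at day 4. Its first step was -0.29 (SE 0.11, edgeR adjusted p = 0.0388) and its second -1.35 (SE 0.11, edgeR adjusted p = 9.01e-05). Prim1, which makes the RNA primer, had a first step of -0.24 that was not called (SE 0.13, edgeR adjusted p = 0.135) and a second of -1.34 (SE 0.14, edgeR adjusted p = 0.000181). By day 4 the log2 fold changes of the partner subunits were -0.85 (Pola2) and -0.81 (Prim2), against -1.65 for Pola1 and -1.59 for Prim1. Prim2 was at 45.5 and 48.1 CPM at day 0, 42.1 and 38.5 at day 2, and 27.7 and 25.7 at day 4. Per kilobase of exon length, Pola1 was at 41.7 and 45.1 in the day 0 libraries and Pola2 at 54.4 and 45.2. At day 4 Pola1 was at 13.9 in both libraries and Pola2 at 26.5 and 28.9. With coding length Pola2 was the highest of the 4 genes in every library, at 73.2 and 60.8 at day 0 and 35.7 and 38.9 at day 4.

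Of the genes of polymerases delta and epsilon, all 5 were lower by day 4, with a median of -1.13. Pold2, an accessory subunit of polymerase delta, was at 81.2 and 70.4 CPM at day 0, 44.1 and 46.5 at day 2, and 20.0 and 23.0 at day 4 (-1.81, SE 0.12, edgeR adjusted p = 3.24e-07). Pole, the catalytic subunit of the leading-strand polymerase, was at 142 and 124 CPM at day 0, 126 and 125 at day 2, and 78.5 and 80.3 at day 4. Its libraries of days 0 and 2 overlapped, and its fall by day 4 was -0.74 (SE 0.11, edgeR adjusted p = 7.71e-05). Pold3 was at 85.6 and 78.1 CPM at day 0, 50 and 47.4 at day 2, and 40.1 and 45.6 at day 4, with a second step of -0.18 that was not called (SE 0.11, edgeR adjusted p = 0.229). Pold1 and Pole2 had log2 fold changes of -1.29 and -1.13 by day 4.

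Among the roles of the 45 genes, flap and nick processing had the widest range of changes. Lig1, the ligase that seals Okazaki fragments, was at 174 and 195 CPM at day 0, 85.2 and 83.8 at day 2, and 41.6 and 52.0 at day 4 (-1.98, SE 0.13, edgeR adjusted p = 2.35e-07). Dna2 and Fen1, nucleases that trim flaps, had log2 fold changes of -1.57 and -1.36, although 88.7% of the exon bases of Fen1 lie opposite Gm10143. Rnaseh2a (chromosome 8, 84956610 to 84969598) was at 44.1 and 40.5 CPM at day 0, 90.6 and 88.1 at day 2, and 61.8 and 60.8 at day 4. It was higher at day 2 (log2 fold change 1.08, SE 0.10, edgeR adjusted p = 6.78e-06), lower from day 2 to day 4 (-0.54, SE 0.10, edgeR adjusted p = 0.00295), and at day 4 it was at 145% of its day 0 level (0.54, SE 0.10, edgeR adjusted p = 0.000617). With each library left out in turn, the calls at day 2 and at day 4 against day 0 held, with values of 1.01 to 1.14 and 0.46 to 0.59. Without day 2 replicate 1 the fall after day 2 was -0.53 and no longer called (edgeR adjusted p = 0.0565). Of its stretches of 31 bases 11.9% also occur in other genes, and Rtbdn, its neighbour on the other strand, had at most 12 counts in any library.

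Ribonuclease H2, which removes ribonucleotides left in DNA, needs its A subunit for catalysis and the B and C subunits for structure, and the 3 mRNAs took different courses. Rnaseh2b, which is not one of the 45 genes, was at 36.7 and 39.6 CPM at day 0, 15.5 and 11.9 at day 2, and 9.03 and 7.98 at day 4 (-2.17, SE 0.15, edgeR adjusted p = 3.98e-07). Rnaseh2c was at 44.1 and 43.2 CPM at day 0, 49.4 and 55.2 at day 2, and 39.0 and 42.1 at day 4. Both day 2 libraries lay above those of the other days. The first step (0.26, SE 0.11, edgeR adjusted p = 0.0572) was not called and the second was lower (-0.37, SE 0.11, edgeR adjusted p = 0.0273). Day 4 against day 0 gave no call (-0.11, SE 0.11, edgeR adjusted p = 0.395). Of the exon bases of Rnaseh2c, 37.8% lie opposite Kat5, and the part of Kat5 reads in its counts was not tested. Per kilobase, the ratio of Rnaseh2a to Rnaseh2b was 0.877 and 0.748 at day 0, 4.28 and 5.39 at day 2, and 5 and 5.57 at day 4. With coding length the day means were 1.14, 6.77 and 7.40, so which of the pair was higher at day 0 depends on the length used.

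**Figure D3:**
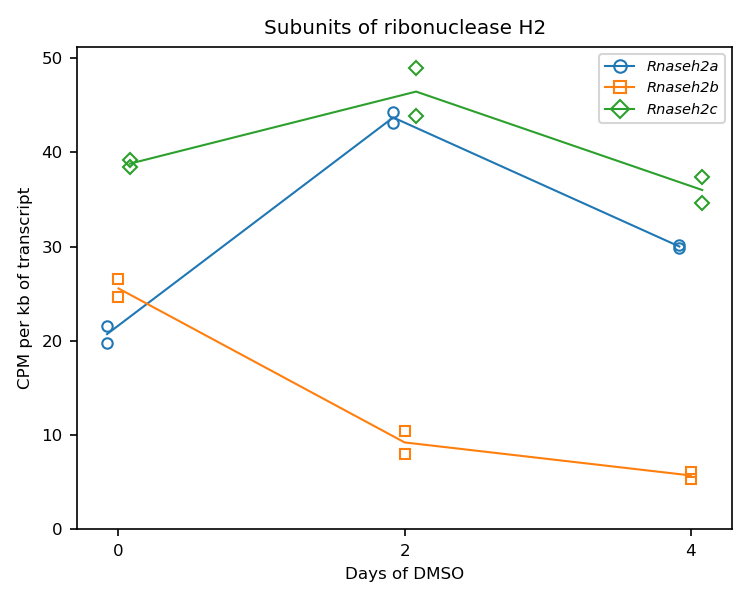
Level of the 3 ribonuclease H2 subunit genes in CPM per kilobase of transcript against days of DMSO, with a marker for each library and lines through the means of the 2 libraries. Rnaseh2a is above its day 0 level at days 2 and 4, Rnaseh2b falls to 6.05 and 5.34 at day 4, and Rnaseh2c is above its day 0 level at day 2 and a little below it at day 4.

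The 3 genes of replication protein A, which coats single-stranded DNA, were all lower by day 4, with log2 fold changes of -1.20 for Rpa1, -1.42 for Rpa2 and -0.60 for Rpa3. Rpa2 was at 108 and 96.9 CPM at day 0, 85.6 and 80.6 at day 2, and 37.4 and 39.2 at day 4 (SE 0.11, edgeR adjusted p = 6.73e-07). Rpa3, the small subunit, was at 29.5 and 25 CPM at day 0, 28.4 and 28.5 at day 2, and 18.9 and 17.0 at day 4, with overlapping libraries at days 0 and 2. Of its stretches of 31 bases, 21.2% occur in other genes. The fork protection pair had a median of -1.70. Tipin was at 82.7 and 101 CPM at day 0, 63.1 and 58.8 at day 2, and 25.9 and 23.8 at day 4 (-1.89, SE 0.13, edgeR adjusted p = 2.77e-07). Timeless, its partner, was at 76.6 and 99.9 CPM at day 0, 50.8 and 53.4 at day 2, and 28.7 and 33.5 at day 4 (-1.50, SE 0.14, edgeR adjusted p = 3e-06).

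**Figure D4:**
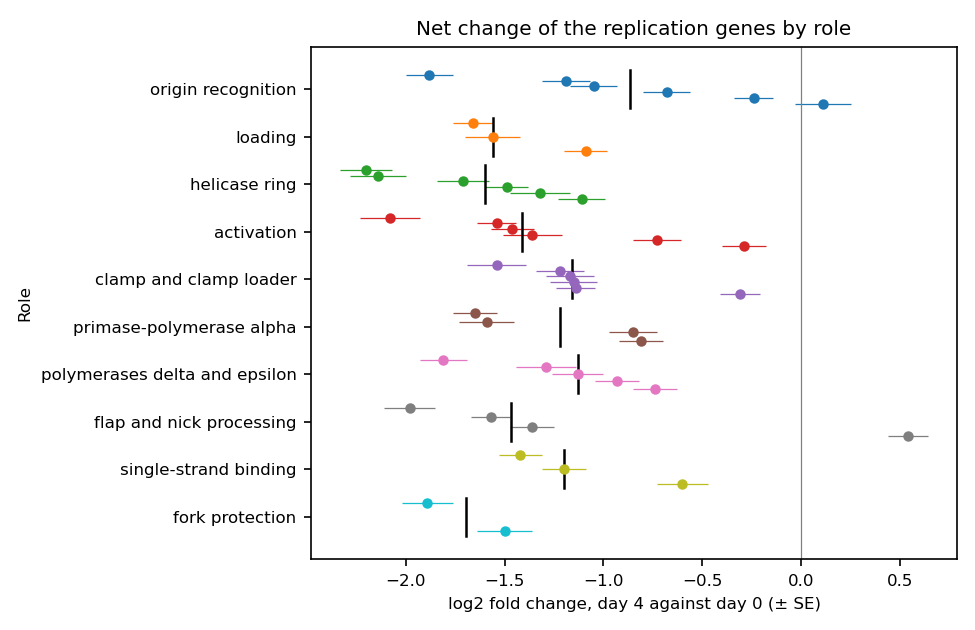
Log2 fold change from day 0 to day 4 of each replication gene (points, bars are 1 SE) by role, with a black line at the median of each role. Origin recognition spans -1.88 to 0.11, and Rnaseh2a at 0.54 is the point to the right of 0 in flap and nick processing.

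The 2 steps were unequal for some of the genes. The difference between the steps was tested as 1 contrast (the change from day 2 to day 4 minus that from day 0 to day 2), which called 14 of the 45 genes. For 11 of them (24.4% of the 45, against 16.9% of all genes) the second step was the more negative, and for 3 (6.67%, against 13.1% of all genes) the first. Over both directions the share called was near that of all genes, so the count is a description of single genes and not a result about the group. Mcm2 (0.80, SE 0.22, edgeR adjusted p = 0.0202), Mcm5 (0.74, SE 0.22, edgeR adjusted p = 0.0263) and Pold3 (0.56, SE 0.19, edgeR adjusted p = 0.0485) fell mainly before day 2. The late group held Pola1 (-1.06, SE 0.19, edgeR adjusted p = 0.00266), Prim1 (-1.10, SE 0.23, edgeR adjusted p = 0.00598), Orc5, Cdc6, Gins4, Rfc5, Pole, Rpa2, Rpa3 and Tipin, with values from -0.58 to -1.10, and Rnaseh2a, which rose first (-1.62, SE 0.17, edgeR adjusted p = 0.00014). The day 2 libraries enter both steps, and the count rested on them. With the replicate block Pold3 was no longer called. Without day 2 replicate 1 only Rnaseh2a was called, without day 2 replicate 2 Pola1, Prim1 and Rnaseh2a were called, and without day 4 replicate 2 there were 7 calls, none of them for Mcm2, Mcm5 or Pold3. With libraries scaled by total counts alone, 21 genes had the more negative second step and 0 the more negative first. With that scaling the median over all genes was itself 0.21 from day 0 to day 2, -0.09 from day 2 to day 4 and -0.31 in the contrast, against 0.01, 0.00 and -0.03 with TMM factors.

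**Figure D5:**
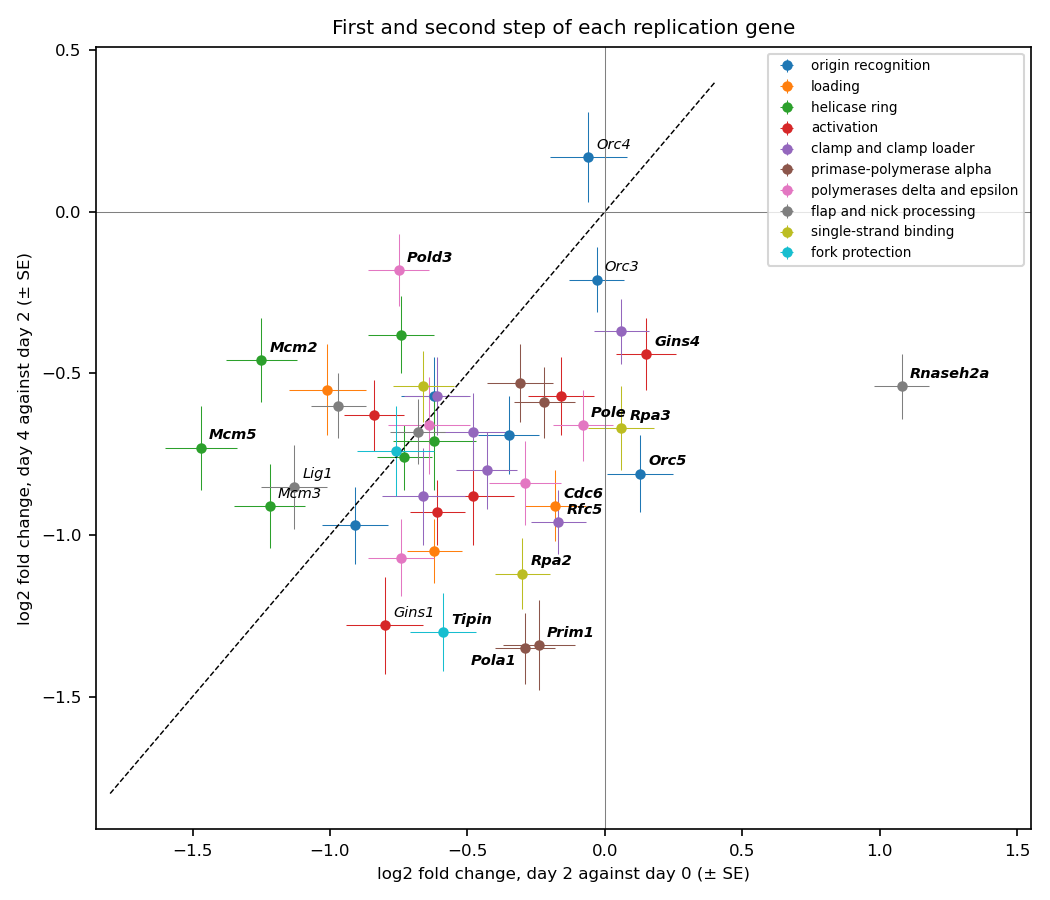
Log2 fold change from day 2 to day 4 against that from day 0 to day 2 for each replication gene (bars are 1 SE, colors are roles). The dashed line marks equal steps and names in bold are genes called for unequal steps, with Mcm2, Mcm5 and Pold3 above the line and Pola1, Prim1 and Rnaseh2a among those below it. Both axes use the day 2 libraries.

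The 15 genes with E2F letters had a median log2 fold change by day 4 of -1.49, from -2.20 to -0.24. Of these 15, 14 were lower, where 36.4% of all genes tested were called lower and 35.5% higher. The 21 genes whose windows held no such letters had a median of -1.20, from -1.81 to 0.54, with 19 lower and 1 higher. The ranges overlap for most of their length. Before day 2 the medians were -0.66 and -0.43, and after it -0.76 and -0.68. Orc3 was the gene with a match that was not called. Whether the letters had a part in the falls was not tested.

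A further list of 38 genes that assist the fork, fire origins, assemble chromatin behind it or destroy CDT1 was measured beside them. By day 4, 30 of the 38 (78.9%) were lower and 3 (7.89%) were higher, against 36.4% and 35.5% of all genes tested. Their median log2 fold change was -0.91. The most negative were Dscc1 of an alternative clamp loader (-2.17), Rnaseh2b (-2.17), Wdhd1, which ties polymerase alpha to the helicase (-1.83), and Ung, the uracil glycosylase (-1.72). Dscc1 was at 39.1 and 47.9 CPM at day 0, 34.0 and 29.9 at day 2, and 9.73 and 9.57 at day 4. Ung was at 20.3 and 27.0 CPM at day 0, 7.26 and 6.82 at day 2, and 6.62 and 7.71 at day 4, and its second step was not called (0.03, SE 0.17, edgeR adjusted p = 0.911). Mcm9, a relative of the ring genes with a known part in recombination, rose, with 3.95 and 4.35 CPM at day 0, 11.6 and 11.4 at day 2, and 12.8 and 12.9 at day 4 (1.63, SE 0.14, edgeR adjusted p = 1.69e-06). Cul4a, a scaffold of the ligase that marks CDT1 for destruction, rose by 0.99 (SE 0.10, edgeR adjusted p = 5.66e-06), and Donson, an origin firing factor, by 0.43 (SE 0.11, edgeR adjusted p = 0.00357). Donson shares 12.1% of its exon bases on the same strand with Atp5o, and the part of Atp5o reads in its counts was not tested. The other 4 of the 5 genes listed for CDT1 destruction were lower by day 4, with log2 fold changes of -1.61 for Skp2, -0.61 for Cul4b, the second scaffold, -0.56 for Ddb1 and -0.44 for Dtl. The other changes in this list included all 5 histone chaperone genes (Chaf1a, Chaf1b, Asf1b, Ssrp1 and Supt16), which had log2 fold changes of -1.21 to -1.69.

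The falls ran beside a higher summed level of red cell markers, though not of each one. The summed level of 7 erythroid markers (Hba-a1, Hbb-bs, Alas2, Slc4a1, Epb42, Gata1 and Klf1) was 667 to 736 CPM in the day 0 libraries, 3767 to 4557 in those of day 2 and 16647 to 18620 in those of day 4. Most of the day 4 sum was globin, with Hba-a1 at 9794 and 11461 CPM and Hbb-bs at 4970 and 5102. Of the erythroid transcription factors, Gata1 was at 202 and 203 CPM at day 0 and 261 and 263 at day 4, and Klf1 at 192 and 309 at day 0 and 173 and 171 at day 4. Of 12 markers of other blood cells, 11 were listed, and their summed level ranged over 269 to 273, 211 to 234 and 542 to 616 CPM on the 3 days. Itga2b and Pf4, known from megakaryocytes, made up nearly all of it, and the other 9 were at most 2.3 CPM in any library. They went opposite ways, with Itga2b at 209 and 227 CPM at day 0 and 531 and 606 at day 4, and Pf4 at 57.4 and 42.7 at day 0 and 10.2 and 8.93 at day 4. The part of these markers in the changes of the replication genes was not tested. Libraries of the same day differed by more than sampling noise. The chi-square per degree of freedom over the transcripts tested was 58.9 at day 0, 10.5 at day 2 and 16.4 at day 4. This value also grows with the counts of a library, and the library with the most counts was of day 0.

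With 2 libraries a day, several single calls hung on 1 library, and the lone library left was then assumed to vary like those of the other days. From day 0 to day 2, the fits without a library called 23 to 30 genes lower, the fewest without day 2 replicate 2. Cdc45, Mcm6, Orc2, Pcna, Pola1, Pola2, Pold1, Rfc4 and Rpa2 lost their call in at least 1 of these fits, with log2 fold changes there of -0.17 to -0.56. From day 2 to day 4 the fits called 28 to 42 lower, with 28 without day 2 replicate 1, 35 without day 2 replicate 2, 35 without day 4 replicate 1 and 37 without day 4 replicate 2. The genes that lost a call were Cdt1, Gins3, Gins4, Mcm2, Mcm4, Mcm6, Orc6, Pola2, Pold1, Prim2, Rfc1, Rfc2, Rnaseh2a and Rpa1, with log2 fold changes of -0.27 to -0.75. From day 0 to day 4 the fits called 40 to 43 lower, and Gins4 (-0.29 without either day 2 library, -0.20 without day 4 replicate 2) and Rfc1 (-0.30 and -0.32 without either day 4 library) lost their call.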

How the data were processed

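Poly(A)-selected, stranded mRNA libraries of MEL cells were made from 2 cultures at each of 3 days. The authors trimmed adapters with cutadapt, mapped the reads with TopHat to the mm10 genome and deposited counts for each RefSeq transcript, not normalized, and the labels list HTSeq among the tools. Its strand setting and the annotation release were not given in the sources used here. Counts listed on no feature (50.5% to 58.4% of all counts listed for a library) were left out of library sizes and tests. Transcript totals were 35294930 to 53899476, as sums of transcript counts and not numbers of reads. The p-values carry both the counting error and the spread between 2 cultures.

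Day and replicate were taken from the sample labels. Symbols came from RefSeq for 32199 of 32654 transcripts and from GENCODE for 187, and 268 had none. The transcript with the highest mean count stood for its gene. Counts were tested with edgeR 4.0.16 (R 4.3.3): TMM factors (0.921 to 1.07), filterByExpr by day, and 1 glmQLFit of 6 libraries with glmQLFTest, adjusted by Benjamini-Hochberg over 18351 transcripts. CPM used TMM-scaled library sizes. CPM per kb used GENCODE exon length or, as an alternative, coding length. The fit was tested on simulated counts. An exact permutation test of 2 against 2 libraries cannot go below p = 0.333 and was not used.

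The named genes follow a rule: all 45 by role, values in every library for the most and least negative of each role, genes called higher or in opposite directions, and the 4 most negative and up to 4 highest called of the other 38. Cdt1, Orc5, Pold3, Pold4, Pole3, Pole4, Pcna, Cdc45, Pola2, Gse1, Cul4b, Skp2, Ddb1, Dtl and the ribonuclease H2 subunits were added after their values were seen. Members and lists were chosen with earlier results of these data known, and 1 further erythroid marker of the design, in neither the sum nor the count of 7, is not reported here. The alternatives were DESeq2 1.42.0, RLE factors, total counts, factors without globin transcripts, no filter, only the 2 days compared, the replicate block, a log2 fold change of at least 1, the transcript with the lowest count, and leaving out each library.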

Additional observations from a re-analysis of the deposited data

How the results depend on the processing

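The counts of genes lower and higher in the 3 comparisons were within 1.5 times under DESeq2, RLE factors and factors without globin transcripts. The same held with no filter, a fit of only the 2 days compared and another transcript of the gene. Another transcript could change the values only of Orc2, Orc4, Orc6, Cdc6, Cdc45, Gins1, Pola2, Fen1, Lig1, Rpa1 and Timeless. The other genes had a lone transcript or transcripts with equal counts, so this alternative repeated the main fit for them. Of 1890 values of single genes under the alternatives, 1799 kept their direction and side of the threshold. Of the rest, 72 lost the call, 6 gained one and 13 changed sign. The 1799 include the repeated values, which could not change. A log2 fold change of at least 1 left 5 genes lower from day 0 to day 2, 7 from day 2 to day 4 and 33 from day 0 to day 4. It left 0 higher by day 4, 3 with unequal steps, and 17 lower and 1 higher of the other replication genes, since fewer changes reach that size. Shares of all genes at that limit were not computed. Total counts called 3 genes higher at day 2 (Rnaseh2a, Gins4 and Orc5) and 21 with unequal steps. Leaving out each library gave 1 to 19 genes with unequal steps, where all libraries gave 14. From day 0 to day 2, total counts turned the sign of Cdc6 (0.02), Gins3 (0.04), Orc3 (0.17), Orc4 (0.14), Pole (0.12) and Rfc5 (0.02), none of them called. Leaving out a library gave ranges across 0 for Orc3 (-0.11 to 0.05, and 0.00 once), Orc4 (-0.28 to 0.14), Pole (-0.18 to 0.01) and Rpa3 (-0.06 to 0.19) at that step and Orc4 (-0.03 to 0.39) at the second, and the other transcript of Orc4 gave -0.06 by day 4. Replicates with the same number were not paired, since their deviations correlated by 0.0316 to 0.0791 over 18351 transcripts with 2 numbers. The replicate block gave 31, 42 and 42 genes lower, 1, 0 and 1 higher and 13 with unequal steps, Pold3 being the one lost.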
